A study of Mus musculus with 12 samples.

Results

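The receptors for interleukin-12 and interleukin-18 and the proteins that carry their signals were followed in tumour-antigen-specific CD8 T cells after checkpoint blockade. The set held 7 genes, taken by name in all of the deposited tables: the receptor chains Il12rb1, Il12rb2, Il18r1 and Il18rap, the kinase Tyk2, the transcription factor Stat4 and the adaptor Myd88. All 7 were among the 17833 genes the authors tested, of 48709 listed. RNA came from 12 libraries, 3 in each of 4 arms: anti-PD-1 DANA, anti-CTLA-4, both antibodies together (Combo) and the Isotype control antibody. DANA names a mutated antibody Fc part that binds Fc receptors poorly.

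The mice of every arm were wild-type C57BL/6 animals of postnatal day 91 that had been injected with TRAMP-C2, a mouse prostate tumour line. The labels place the antibody doses at days 3, 6 and 9, and the series text has day 8 for the last. On day 28 live CD45+CD3+CD8+ cells that bound a Spas-1 but not a Spas-2 tetramer, Spas-1 being a tumour antigen, were sorted from the draining lymph nodes. Cells of the 5 mice of an arm were pooled and the pool was split into the 3 libraries. An arm and its pool therefore cannot be told apart, and every p-value and SD measures the spread between splits of 1 pool. In such bulk RNA, fewer cells that carry a transcript and less of it per cell cannot be told apart either.

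Interleukin-12 binds a receptor of 2 chains: Il12rb1, which interleukin-23 also uses, and Il12rb2, which naive T cells hardly express and activated T cells gain. Tyk2 and Jak2 are bound to these chains and phosphorylate Stat4, which with T-bet (Tbx21) promotes interferon gamma. Interleukin-18 binds Il18r1, Il18rap joins as the accessory chain, and the pair signals through Myd88 and Irak kinases to NF-kB; together the cytokines drive interferon gamma in effector CD8 T cells even without antigen.

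The deposited tables give, for each treatment against Isotype, the larger of the 2 arm means as reads scaled by exon length and library size (RPKM), a log2 fold change and p-values, but no value per library. The lowest means come in steps worth a single read, which gave library sizes between 14729713 and 42556869 reads. With them, a mean could often be resolved into whole reads for the 3 libraries of its arm, here called the shallowest, middle and deepest library since they could not be tied to replicate numbers. Unevenness was common among resolved genes of 300 to 1500 reads, drawn from those with a log2 fold change above 1 when scaled by library size. A single library supplied at least 80% of the arm's level for 35.0% of 214 such genes in anti-CTLA-4. The share was 35.6% of 225 in anti-PD-1 DANA and 67.2% of 201 in Combo. These genes were chosen as higher in the treated arm, so the shares need not hold for all genes, and Isotype was not examined. The 9 CD8 T cell markers summed to 2086 RPKM in anti-CTLA-4, 2221 in anti-PD-1 DANA, 1747 in Combo and 1551 in Isotype. Of the 9, 0 passed the test in any of the authors' deposited tables. In that order of treatments 4.23%, 3.75% and 7.53% of all tested genes passed, so this count does not show unchanged CD8 T cell content. At an unadjusted p under 0.05, Lck and Thy1 were lower under each single antibody and Thy1 was higher in Combo. The median log2 fold change of the 9 as deposited was -0.54, -0.31 and -0.12, although the sums were above Isotype. By library size it was 0.41, 0.51 and -0.014. By plain library size the authors' log2 fold changes would be higher by 0.94 in anti-CTLA-4, by 0.82 in anti-PD-1 DANA and by 0.11 in Combo, and the median tested gene lay at -0.62, -0.45 and -0.42 in that order in the authors' deposited tables.

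Il12rb2, Il18rap and its neighbour Il18r1 are shown with the 250 bases before their start, because the first pair were the genes that passed the test and Il18r1 lies beside Il18rap, ending 14507 bases before it on the same strand. The sequences are RefSeq's, on GRCm38.p6, read 5′ to 3′ on the gene's strand, at chr6:67376189-67376438 (minus strand) for Il12rb2, chr1:40515112-40515361 (plus strand) for Il18rap and chr1:40465302-40465551 (plus strand) for Il18r1; capitals mark a match to the STAT motif.
Il12rb2: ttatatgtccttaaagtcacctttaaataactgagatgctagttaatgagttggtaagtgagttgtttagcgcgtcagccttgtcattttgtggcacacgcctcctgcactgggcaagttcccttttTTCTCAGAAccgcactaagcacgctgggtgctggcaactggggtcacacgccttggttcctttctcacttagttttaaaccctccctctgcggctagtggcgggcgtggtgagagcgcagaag
Il18rap: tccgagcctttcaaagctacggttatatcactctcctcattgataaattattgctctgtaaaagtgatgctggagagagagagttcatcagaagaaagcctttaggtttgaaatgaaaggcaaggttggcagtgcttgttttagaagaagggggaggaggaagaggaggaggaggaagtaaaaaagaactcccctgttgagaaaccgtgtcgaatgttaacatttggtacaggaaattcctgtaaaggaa
Il18r1: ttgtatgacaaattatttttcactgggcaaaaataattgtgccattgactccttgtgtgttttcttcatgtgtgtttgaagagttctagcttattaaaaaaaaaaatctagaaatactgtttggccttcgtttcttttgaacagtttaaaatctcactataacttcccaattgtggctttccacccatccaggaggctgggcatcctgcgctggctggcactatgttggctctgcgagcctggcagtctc
Of the 7 genes, 4 had a window at the deposited start, Stat4 being the other. The STAT motif TTCNNNGAA was searched on both strands, as were the T-box motif GGTGTGA, the AP-1 motif TGANTCA and the NF-kB motif. The STAT motif matched as TTCTCAGAA from -123 to -115 relative to the start of Il12rb2, and 7.02% of 32851 promoter windows hold such a match. The windows of Il18rap, Il18r1 and Stat4 matched none of the 4 motifs, which 3.33% (T-box), 6.75% (AP-1) and 7.25% (NF-kB) of all windows hold.

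The interleukin-12 receptor chain Il12rb2 (ENSMUSG00000018341, GRCm38, chr6:67291318-67376188, minus strand) was at a few reads in Isotype and at several RPKM in Combo. In Combo it had 0 reads in the shallowest library, 852 in the middle one and 1096 in the deepest, or 0, 7.02 and 6.79 RPKM, against 2, 0 and 1 reads in Isotype, or 0.0220, 0 and 0.00802 RPKM. Anti-PD-1 DANA had 0, 388 and 0 reads, or 0, 3.82 and 0 RPKM. The 2 deeper Combo libraries and a single anti-PD-1 DANA library thus stood above Isotype, while the shallowest Combo library, in which 0 reads allow a level of up to 0.0322 RPKM, overlapped it. In anti-CTLA-4 the authors' deposited table implied 0.00901 RPKM, about the Isotype level, and no fold is given between arms this low.

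The Combo mean of Il12rb2 was 4.60 ± 3.99 RPKM (SD, n = 3), against 0.010 ± 0.0111 RPKM in Isotype (SD, n = 3). In the authors' deposited table its log2 fold change in Combo was 8.58 ± 2.23 (SE implied by the p-value), with an adjusted p of 0.0102, so Il12rb2 rose in Combo. Its anti-PD-1 DANA mean was 1.27 ± 2.21 RPKM (SD, n = 3), with a log2 fold change of 5.96 ± 2.23 and an adjusted p of 0.180 in the authors' deposited table. Because Isotype held only 3 reads, the ratio of pooled read rates is loose: 533 for Combo (exact 95% interval 182 to 2586) and 127 for anti-PD-1 DANA (43.1 to 618), covering counting error only. An exact two-sided permutation test of the RPKM values over libraries gave p = 0.4 for Combo and p = 1 for anti-PD-1 DANA, where 3 against 3 libraries cannot go below 0.1. The fitted call and the library values therefore differ in how firmly they separate Combo from Isotype.

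**Figure D1:**
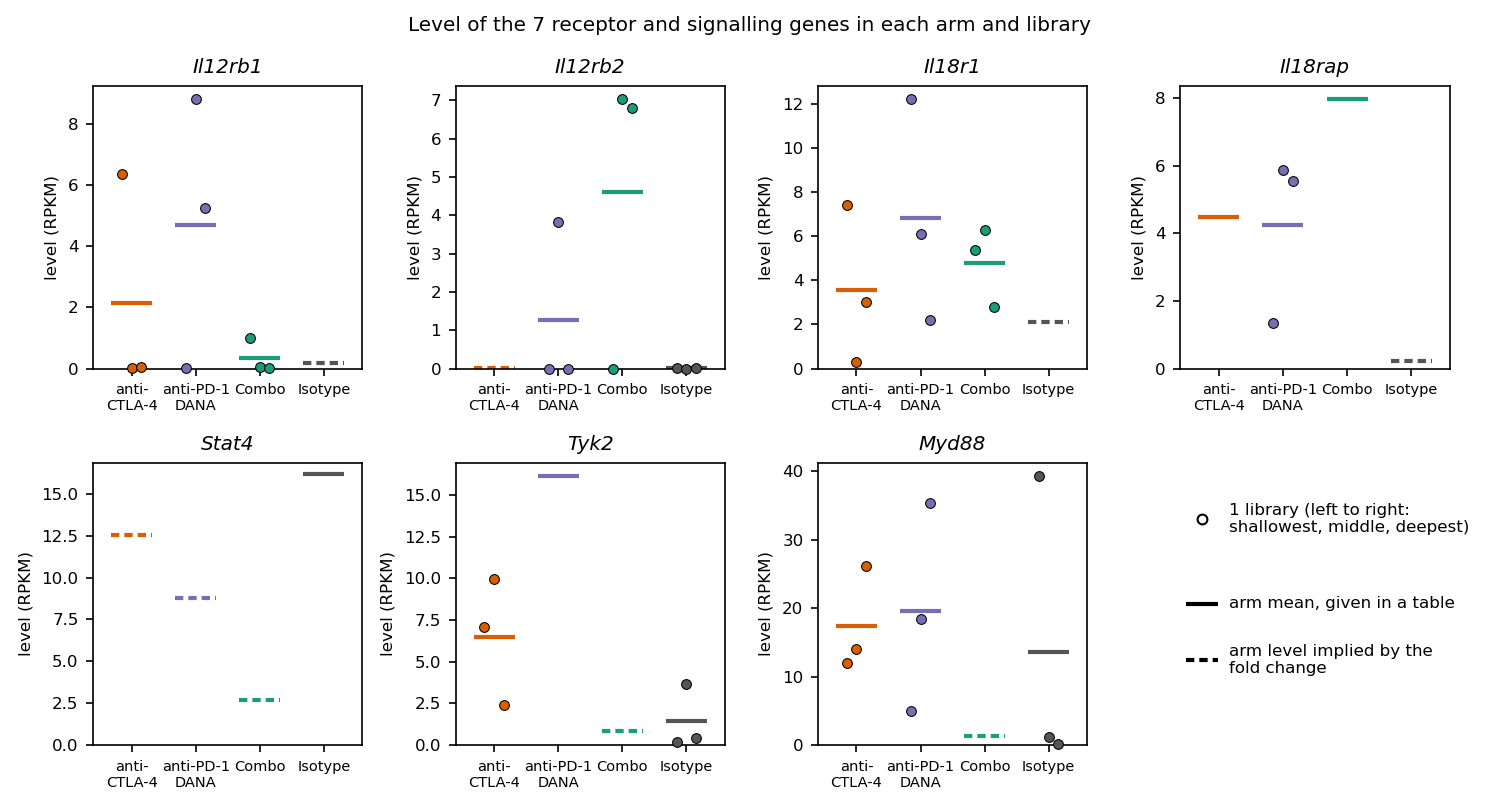
Level in RPKM (linear scale) of the 7 genes by arm, with a point for each library whose reads could be resolved, a solid bar for an arm mean given in a table and a dashed bar for a level implied by the fold change. Il12rb2 stands high in 2 Combo libraries and 1 anti-PD-1 DANA library, at 3.82 to 7.02 RPKM, and near or at 0 in the others, Isotype included.

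Il12rb1 (ENSMUSG00000000791, chr8:70808449-70821424, plus strand), the chain shared with the interleukin-23 receptor, did not pass the test in any treatment. It had 385, 1 and 5 reads in the shallowest, middle and deepest anti-CTLA-4 library (6.37, 0.0128 and 0.0412 RPKM), 3, 966 and 688 in anti-PD-1 DANA (0.0302, 8.79 and 5.25 RPKM) and 102, 6 and 2 in Combo (1.01, 0.0457 and 0.0114 RPKM). A single library thus supplied 99.2% of the anti-CTLA-4 level and 94.6% of the Combo level, and 2 of 3 libraries carried that of anti-PD-1 DANA. The Isotype level, implied by the fold changes of the authors' deposited tables, was 0.172 RPKM. Its log2 fold change in the authors' deposited tables was 2.68 ± 1.97 in anti-CTLA-4 (adjusted p = 1), 4.003 ± 1.97 in anti-PD-1 DANA (unadjusted p = 0.0422, adjusted p = 0.531) and 0.94 ± 1.97 in Combo (unadjusted p = 0.632). The libraries rich in Il12rb1 were not always those rich in Il12rb2: the 2 deeper Combo libraries, with 852 and 1096 reads of Il12rb2, held 6 and 2 reads of Il12rb1, and in anti-PD-1 DANA the middle library was high for both.

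Il18rap (ENSMUSG00000026068, chr1:40515362-40551705, plus strand), the accessory chain that lets the interleukin-18 receptor signal, was at several RPKM in each treatment and low in Isotype. In anti-PD-1 DANA it had 218, 1059 and 1196 reads, or 1.33, 5.86 and 5.55 RPKM. In Combo 2 sets of whole reads fit the mean, 1589, 2579 and 688 or 1960, 780 and 2439, so every Combo library held at least 688 reads in either case. In anti-CTLA-4 the candidates were 470, 472 and 1014 reads or 1045, 10 and 575. The Isotype level implied by the authors' deposited tables was 0.226 RPKM, and all anti-PD-1 DANA and Combo libraries lay above that mean.

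The means of Il18rap were 4.49 RPKM in anti-CTLA-4, 4.25 ± 2.53 RPKM in anti-PD-1 DANA (SD, n = 3) and 7.97 RPKM in Combo. In the authors' deposited table Il18rap rose in Combo, with a log2 fold change of 5.04 ± 1.39 and an adjusted p of 0.0178. It was 3.34 ± 1.39 in anti-CTLA-4 (p = 0.0164 unadjusted and 0.289 adjusted) and 3.42 ± 1.39 in anti-PD-1 DANA (unadjusted p = 0.0140, adjusted p = 0.264) in the authors' deposited tables. It was the only gene of the 7 with an unadjusted p under 0.05 in every table, and the tables share their Isotype libraries.

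Il18r1 (ENSMUSG00000026070, chr1:40465552-40500854, plus strand), the chain that binds interleukin-18, was measured in all treated libraries and did not pass the test. It had 525, 28 and 431 reads in anti-CTLA-4 (7.40, 0.304 and 3.02 RPKM), 1426, 787 and 338 in anti-PD-1 DANA (12.2, 6.10 and 2.20 RPKM) and 636, 967 and 569 in Combo (5.37, 6.27 and 2.78 RPKM). Combo was the most even of the 3 treated arms, at 4.81 ± 1.82 RPKM (SD, n = 3), and the implied Isotype level was 2.13 RPKM. Its log2 fold change in the authors' deposited tables was -0.21 ± 1.45 in anti-CTLA-4, which turns to 0.74 by library size, 0.87 ± 1.45 in anti-PD-1 DANA and 1.08 ± 1.45 in Combo, with unadjusted p-values of 0.885, 0.549 and 0.456. On the RPKM scale the binding chain exceeded its accessory chain in Isotype, at 2.13 against 0.226, and in anti-PD-1 DANA, at 6.84 against 4.25. The accessory chain was the higher in anti-CTLA-4, at 4.49 against 3.58, and in Combo, at 7.97 against 4.81. These orders were not tested.

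The 3 genes that relay these signals inside the cell had log2 fold changes below 0 in Combo, and none of the 3 passed the test in any table. Tyk2 (ENSMUSG00000032175, chr9:21104069-21127346, minus strand), the kinase on Il12rb1, had 482, 876 and 329 reads in anti-CTLA-4 (7.08, 9.93 and 2.41 RPKM), against 20, 412 and 63 in Isotype (0.181, 3.64 and 0.415 RPKM). The arms overlapped through the middle Isotype library, which supplied 85.9% of that arm's level, and the exact two-sided permutation test gave p = 0.2. In anti-PD-1 DANA 2 sets of whole reads fit the mean of 16.1 RPKM, 1251, 1389 and 3840 or 5042, 89 and 394, and in the second set 1 library supplies 93.0% of the level. The implied Combo level was 0.867 RPKM, against 1.41 ± 1.93 RPKM in Isotype (SD, n = 3). The log2 fold change of Tyk2 was 1.35 ± 1.41 in anti-CTLA-4, 2.83 ± 1.41 in anti-PD-1 DANA (unadjusted p = 0.0440, adjusted p = 0.547) and -0.81 ± 1.41 in Combo in the authors' deposited tables.

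Stat4 (ENSMUSG00000062939, chr1:51987148-52107189, plus strand), the transcription factor that interleukin-12 activates, had its highest level in Isotype, at 16.2 RPKM, with implied levels of 12.5 RPKM in anti-CTLA-4, 8.77 in anti-PD-1 DANA and 2.71 in Combo. Its reads per library could not be resolved. In the authors' deposited tables its log2 fold change was -1.31 ± 1.18 in anti-CTLA-4, -1.70 ± 1.18 in anti-PD-1 DANA and -2.68 ± 1.18 in Combo, the last with an unadjusted p of 0.0224 and an adjusted p of 0.335. All 3 values were below 0 and none passed.

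Myd88 (ENSMUSG00000032508, chr9:119335934-119341411, minus strand), the adaptor of the interleukin-18 receptor and of Toll-like receptors, had 452, 687 and 1996 reads in anti-CTLA-4 (11.9, 13.97 and 26.2 RPKM) and 306, 1267 and 2908 in anti-PD-1 DANA (4.90, 18.4 and 35.3 RPKM), against 2427, 76 and 10 in Isotype (39.3, 1.204 and 0.118 RPKM). A single Isotype library, the shallowest, held 96.7% of that arm's level and stood above every anti-CTLA-4 and anti-PD-1 DANA library, and the other Isotype libraries stood under all of these. Exact two-sided permutation tests gave p = 0.9 in anti-CTLA-4 and p = 0.7 in anti-PD-1 DANA. Its log2 fold change in the authors' deposited tables was -0.60 ± 1.46 in anti-CTLA-4 and -0.31 ± 1.46 in anti-PD-1 DANA, and both turn positive by library size, at 0.34 and 0.50. In Combo the implied level was 1.36 RPKM, with a log2 fold change of -3.43 ± 1.46, an unadjusted p of 0.0192 and an adjusted p of 0.298 in the authors' deposited table.

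**Figure D2:**
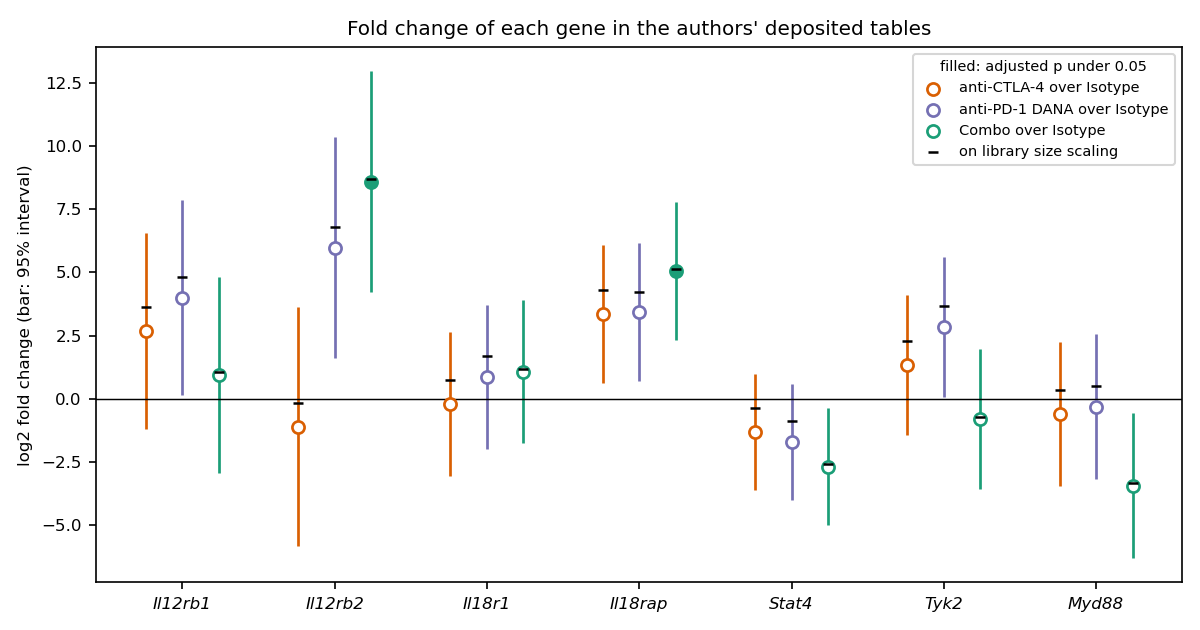
Log2 fold change of each gene over Isotype in the authors' deposited tables, by treatment, with the 95% interval implied by the p-value, filled points for an adjusted p under 0.05 and black dashes for the value on library size scaling. Il12rb2 (8.58) and Il18rap (5.04) in Combo passed at an adjusted p under 0.05, and the intervals of most other values cross 0.

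Counted over the set, 0 of 7 genes passed in anti-CTLA-4, where 4.23% of all tested genes were called, and 0 of 7 in anti-PD-1 DANA, where 3.75% were, by the adjusted p of the authors' deposited tables. In Combo 2 of 7 passed, both higher, where 7.53% of tested genes were called, 3.94% as higher and 3.59% as lower. At an unadjusted p under 0.05 the counts were 1 of 7 in anti-CTLA-4 (Il18rap), 4 of 7 in anti-PD-1 DANA (Il12rb1, Il12rb2, Il18rap and Tyk2, all higher) and 4 of 7 in Combo (Il12rb2 and Il18rap higher, Stat4 and Myd88 lower), where 22.9%, 23.1% and 23.2% of all tested genes in those tables reached it. The median log2 fold change of the 7 was -0.21 in anti-CTLA-4, 2.83 in anti-PD-1 DANA and 0.94 in Combo in the authors' deposited tables, beside the medians of -0.62, -0.45 and -0.42 over all tested genes.

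The treatments were then compared with each other through the difference of their log2 fold changes, in which Isotype cancels, with an upper bound for the SE. Of the 21 differences (7 genes, 3 pairs of treatments), 0 passed after Benjamini-Hochberg adjustment over all genes, and 2 had an unadjusted p under 0.05, both of Il12rb2. Among all tested genes the share called was 0.0561% for Combo less anti-CTLA-4, 0.0336% for Combo less anti-PD-1 DANA, and 0 when the single antibodies were compared. Il12rb2 in Combo less anti-CTLA-4 was 9.67 ± 3.29 (log2, 95% interval 3.23 to 16.1) and did not pass, a value that rests on an anti-CTLA-4 level of a few reads. Combo less anti-PD-1 DANA was 2.62 ± 3.15 for Il12rb2 and 1.62 ± 1.97 for Il18rap, and Combo less anti-CTLA-4 was 1.70 ± 1.97 for Il18rap, so these data do not separate Combo from either antibody alone for Il18rap. Tyk2 in Combo less anti-PD-1 DANA was -3.64 ± 1.99 (95% interval -7.55 to 0.259), and Myd88 was -2.83 ± 2.07 in Combo less anti-CTLA-4 and -3.12 ± 2.07 in Combo less anti-PD-1 DANA.

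By arm mean or implied level, Il12rb2 and Il18rap were highest in Combo, Il12rb1, Il18r1, Tyk2 and Myd88 in anti-PD-1 DANA, and Stat4 in Isotype. Neighbouring arms in these orders did not pass a test of their difference for any gene, Combo and Isotype being apart in the order for both genes that passed.

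For each receptor chain, the 3 tested genes of like level with the smallest Euclidean distance over the 3 log2 fold changes, which share Isotype, were listed as a description. They were Suv39h1 (0.512), Dhx57 (0.686) and Dnaaf5 (0.711) for Il12rb1, and Snrnp35 (0.919), Frmd8os (0.924) and Zfp867 (1.48) for Il12rb2. For Il18r1 they were Bola3 (0.152), Meaf6 (0.283) and Ppp6c (0.344), and for Il18rap Ptpra (0.203), Egln2 (0.229) and Afg3l2 (0.525). Neither chain of a receptor was among the 3 genes listed for its partner, drawn from 3955 to 4248 candidates. So short a list cannot tell whether partners change together.

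Around the 7 genes, 80 others of the pathway were listed, of which 73 were tested. Of these, 6 were higher and 0 lower in anti-CTLA-4, 6 higher and 0 lower in anti-PD-1 DANA, and 5 higher and 4 lower in Combo at an adjusted p under 0.05 in the authors' deposited tables. The share of all tested genes called higher was 2.74% in anti-CTLA-4, 2.43% in anti-PD-1 DANA and 3.94% in Combo, and the share called lower 1.49%, 1.32% and 3.59%.

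The ligand genes were at or near 0 in these T cells. Of 7 ligand and binding protein genes 4 were tested and 0 passed in any table, and Il12a, Il23a and Il18 were listed at 0 in every table. Il18bp, the secreted protein that captures interleukin-18, had 0, 134 and 924 reads in anti-CTLA-4, against 27, 8 and 0 in Isotype, with a log2 fold change of 3.84 ± 2.10 and an adjusted p of 0.731 in the authors' deposited table. Of 9 related receptors 7 were tested and 1 passed: Il1rl2, the interleukin-36 receptor, rose in anti-CTLA-4, where it had 428, 209 and 1 reads, with a log2 fold change of 7.88 ± 2.25 and an adjusted p of 0.0367 in the authors' deposited table.

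Of 13 signalling genes of the interleukin-12 receptor, all tested, 0 passed in anti-CTLA-4 and in anti-PD-1 DANA and 1 fell in Combo. Ptpn6, the phosphatase SHP-1, fell in Combo by 1.65 (SE 0.46, adjusted p = 0.0211 in the authors' deposited table). Its log2 fold change was also below 0, without a call, in anti-CTLA-4 (-1.15 ± 0.46) and in anti-PD-1 DANA (-1.002 ± 0.46). Jak2, the kinase on Il12rb2, had a log2 fold change of -3.81 ± 1.49 in Combo and an adjusted p of 0.193 in the authors' deposited table. The list's median log2 fold change was -0.95 in anti-CTLA-4, -1.002 in anti-PD-1 DANA and -0.83 in Combo.

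Of the 26 signalling genes of the interleukin-18 receptor 25 were tested, and the same pair was higher in each table, all sharing Isotype. Ikbkg, the regulatory subunit of the IkB kinase complex (NEMO), rose by 6.91 ± 1.55 in anti-CTLA-4, 7.28 ± 1.55 in anti-PD-1 DANA and 5.48 ± 1.55 in Combo on the log2 scale of the authors' deposited tables, with adjusted p-values of 0.00424, 0.00268 and 0.0223. Chuk, the catalytic subunit IKK alpha, rose by 5.61 ± 1.42, 5.73 ± 1.42 and 6.77 ± 1.42 in the same order, with adjusted p-values of 0.0133, 0.0123 and 0.000927 in the authors' deposited tables. Irak1, the kinase recruited by Myd88, fell in Combo (log2 fold change -3.78 ± 1.18, adjusted p = 0.0496 in the authors' deposited table), but not by library size, where the adjusted p was 0.0606. The list's median was -0.42 in anti-CTLA-4, -0.59 in anti-PD-1 DANA and -0.21 in Combo.

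Among 25 target genes in T cells, 24 tested, 3 were higher in anti-CTLA-4, 4 in anti-PD-1 DANA and 3 in Combo, where 2 were lower. Tbx21, which encodes T-bet, rose in every table, by 7.27 ± 1.52 in anti-CTLA-4, 6.65 ± 1.52 in anti-PD-1 DANA and 6.97 ± 1.52 in Combo on the log2 scale of the authors' deposited tables (adjusted p = 0.00204, 0.00559 and 0.00162). Its reads were 564, 578 and 1642 in anti-CTLA-4, 872, 951 and 107 in anti-PD-1 DANA, and 1385, 21 and 84 in Combo, so the 2 Combo libraries rich in Il12rb2 were its poorest. Prf1, which encodes perforin, rose by 5.57 ± 1.33, 7.07 ± 1.33 and 5.34 ± 1.33 in the same order (adjusted p = 0.00774, 0.000363 and 0.00695 in the authors' deposited tables). Gadd45b, a stress-induced activator of p38 signalling, rose by 6.87, 6.70 and 6.91 (adjusted p = 0.0165, 0.0212 and 0.00904 in the authors' deposited tables).

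Gzmb, the protease granzyme B, rose in anti-PD-1 DANA by 7.82 ± 2.28 (log2, adjusted p = 0.0449 in the authors' deposited table). Ets1 and Irf1, transcription factors that act in the induction of type 1 immunity, fell in Combo in the authors' deposited table, with a log2 fold change of -1.90 ± 0.51 for Ets1 (adjusted p = 0.0141) and -2.22 ± 0.55 for Irf1 (adjusted p = 0.00664). Without a call, Irf1 was at -1.30 ± 0.55 in anti-CTLA-4 and -1.51 ± 0.55 in anti-PD-1 DANA. Ets1 was at -0.50 ± 0.51 and -0.29 ± 0.51 in the same order, also uncalled. Ifng, the cytokine both receptors induce, was at 14.2 RPKM in Isotype, with log2 fold changes of -1.91 in anti-CTLA-4, -2.56 in anti-PD-1 DANA and -0.42 in Combo, none of which passed in the authors' deposited tables. The list's median was -0.25 in anti-CTLA-4, 0.90 in anti-PD-1 DANA and 0.32 in Combo.

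**Figure D3:**
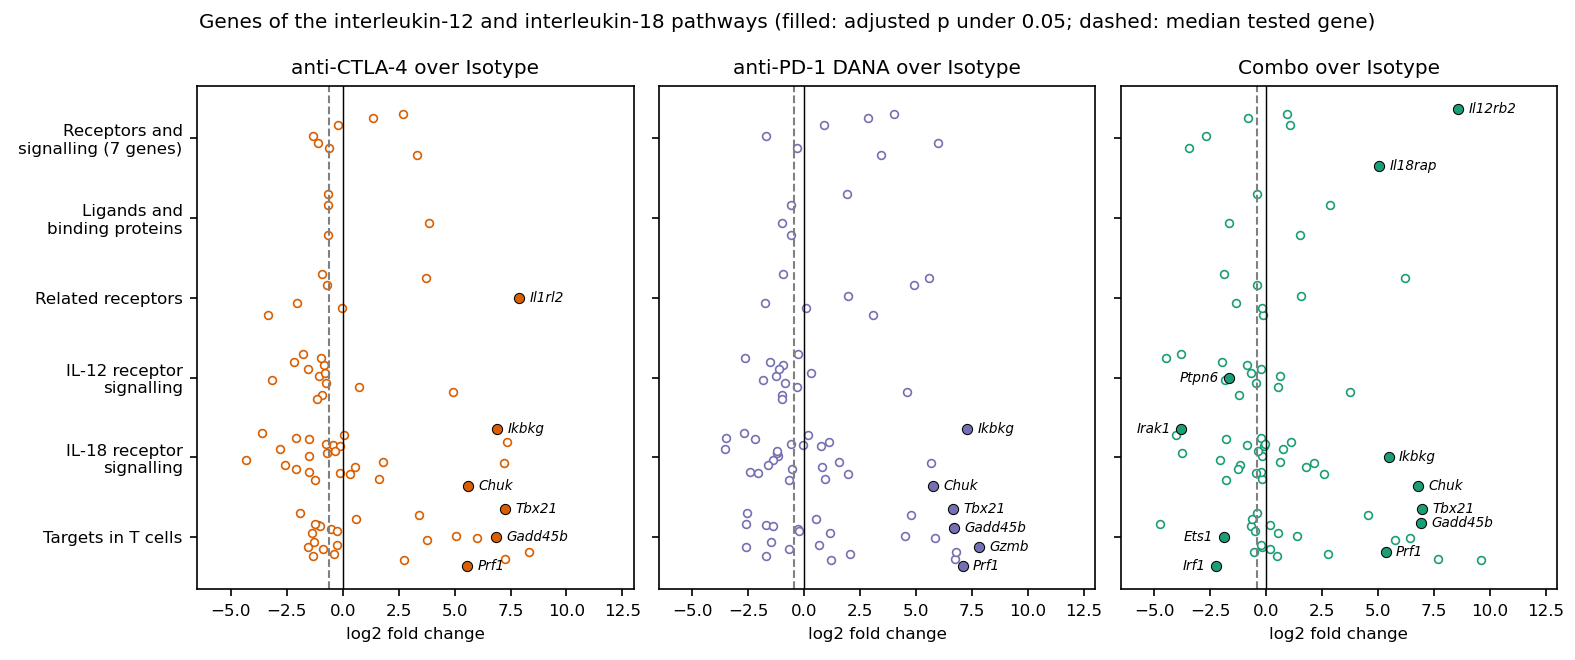
Log2 fold change over Isotype of the tested genes of each list, in 1 panel per treatment, with filled and named points for an adjusted p under 0.05 in the authors' deposited tables and a dashed line at the median tested gene. Tbx21, Prf1, Gadd45b, Ikbkg and Chuk are filled in all 3 panels, and Il12rb2 and Il18rap only in the Combo panel.

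Other cells that carry these receptors were looked for by their markers, given as the sum of RPKM over each list, from given or implied levels. The 7 markers of NK and innate lymphoid cells, which express Il12rb2 and Il18rap, summed to 41.2 in anti-CTLA-4, 32.1 in anti-PD-1 DANA and 17.3 in Combo, against 13.4 in Isotype. Tyrobp was at 28.0 RPKM in anti-CTLA-4 and 16.1 in anti-PD-1 DANA, and Gata3 at 12.8 and 13.1. This pair made up most of the sums of these arms, so the sums are no count of NK cells. Ncr1 and Klra8, which encode NK cell receptors, were listed at 0 in every table, and 0 of the list passed at an adjusted p under 0.05 as deposited. Tyrobp, an adaptor of NK and myeloid cells, had log2 fold changes of 5.69 ± 1.90 in anti-CTLA-4, 4.996 ± 1.90 in anti-PD-1 DANA and 4.32 ± 1.90 in Combo in the authors' deposited tables, with adjusted p-values of 0.103, 0.194 and 0.340, and by library size it passed in anti-CTLA-4 (adjusted p = 0.025). Klrb1c, which encodes NK1.1, was at 6.24 ± 2.41 in anti-PD-1 DANA (adjusted p = 0.207) and -0.22 ± 2.56 in Combo in the authors' deposited tables. Klre1, also on the list, went the other way under the single antibodies, at -3.40 ± 2.32 in anti-CTLA-4 and -1.55 ± 2.31 in anti-PD-1 DANA. Its mean was 2.35 RPKM in Isotype and 3.75 in Combo. Gata3 was at -0.76 ± 1.23 in anti-CTLA-4 and -0.59 ± 1.23 in anti-PD-1 DANA. The 3 CD4 T cell markers summed to 5.16, 2.89 and 0.0412, against 0.535 in Isotype, so they were lowest in Combo, and Cd4 was called higher in anti-CTLA-4 in the authors' deposited table.

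The 8 B cell markers summed to 167 in anti-CTLA-4, 56.3 in anti-PD-1 DANA and 92.6 in Combo, against 45.1 in Isotype, and Fcer2a was called higher in anti-CTLA-4 and in Combo, with Ms4a1 and Spib higher in anti-CTLA-4 and Blnk lower in anti-PD-1 DANA and Combo. The 10 myeloid and dendritic cell markers summed to 97.3, 73.1 and 9.36, against 91.7 in Isotype, with Cd14 at 0 throughout. Lyz2 alone was at 92.1 RPKM in anti-CTLA-4 and 54.6 in anti-PD-1 DANA, so the sums there mostly follow this gene. The list's median log2 fold change was -3.97 in anti-CTLA-4, -1.72 in anti-PD-1 DANA and -2.44 in Combo. In the authors' deposited tables Mpeg1, Fcgr3 and C1qa were lower in anti-CTLA-4, Fcgr3 was lower and Csf1r higher in anti-PD-1 DANA, and Lyz2 and Fcgr3 were lower in Combo. In Combo the myeloid sum was thus below Isotype beside the implied Myd88 level of 1.36 RPKM. The B cell sum was above Isotype in Combo beside the calls of Il12rb2 and Il18rap. That sum was highest in anti-CTLA-4, where Il12rb2 had an implied 0.00901 RPKM. Il18rap was there at 4.49 RPKM, against an implied 0.226 RPKM in Isotype, and neither gene was called. The part of other cells in these results was not tested.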

How the data were processed

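RNA-seq was made from 12 libraries by a Smart-seq2-type protocol (0.25 ng RNA, 21 amplification cycles). The labels' protocols name CLC Genomics Workbench for alignment and quantification, and the submitters' processing notes name GRCm38.p5; the sources used here do not give the statistical model. The larger of the 2 group means that the authors deposited is in RPKM, a unit read from the values. The authors also deposited log2 fold changes, signed linear fold changes (a score, minus the inverse where the treated arm is lower), raw p-values and p-values adjusted by false discovery rate or Bonferroni. A call is an adjusted p (the authors' false discovery rate over all 48709 listed genes) under 0.05. The labels' figure for reads per library equals the length of each table and was not used as depth.

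Each standard error was implied by dividing the log2 fold change by the normal quantile that its p gives, which assumes a Wald-type test. Library sizes were taken from means worth a single read, and whole reads from the means, the sizes and GENCODE M21 exon lengths (names of 99.3% of genes matched); values are given where a single solution exists, and both candidates where 2 do. Of 300 means in each treated arm 79.3% to 82.7% were solved, and at most 0.333% with the length wrong by 1 base. Isotype means were not tried. For some means whose reads are given, the solutions expected by chance exceeded the limit of 0.05 set for a single mean. For Myd88 in anti-PD-1 DANA they came to 0.353, and to 0.0041 jointly over the means of that gene. The check therefore does not show that each count in the text is right. The recovery and the test of differences were checked on simulated data. Implied levels use the fold change on library size scaling. Reads are amplified copies, so intervals cover counting error only. Python 3.11.15, scipy 1.17.1 and pandas 2.3.3 were used.

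The genes, lists and tests were chosen with earlier results of these data known. The pathway genes named are those called in any table, plus some uncalled ones given by value; the genes most alike were taken within a factor of 2 in level. The recovery of reads and the permutation tests on them were added after the data were seen. A gene of the pathway lists is not reported here and was left out of the counts over them.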

Additional observations from a re-analysis of the deposited data

How the results depend on the processing

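With an adjustment over tested genes only, the called genes were 1616 in anti-CTLA-4, 1596 in anti-PD-1 DANA and 2238 in Combo, against 754, 669 and 1343 as deposited. With the authors' Bonferroni p-values they were 27, 34 and 74, and 0 of the 7 receptor pathway genes were called in Combo; Il12rb2 and Il18rap were lost. By library size scaling they were 1367 in anti-CTLA-4, of which 86.9% were higher against 64.7% as deposited, 1217 in anti-PD-1 DANA, 86.4% higher against 64.9%, and 1359 in Combo. Centred on the median tested gene, 82.6%, 79.8% and 66.2% of calls were higher, the last against 52.3% as deposited. With genes of at least 5 RPKM only, 1 of the 7 was called in Combo, since Il12rb2, at 4.60 RPKM, was left out.

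The uncalled fold change of Il18r1 in anti-CTLA-4 turned to 0.74 by library size and 0.41 centred. That of Myd88 turned to 0.34 and 0.018 in anti-CTLA-4, and to 0.50 and 0.14 in anti-PD-1 DANA. The difference of Il18r1 in Combo less anti-PD-1 DANA turned to -0.50 by library size, a setting chosen after seeing the data, and that of Il18rap in anti-CTLA-4 less anti-PD-1 DANA to 0.049 by library size and 0.085 centred. Of the other single-gene values 167 kept direction and side of the threshold. Direction could change only by library size or by centring, because the other settings leave the fold change as it is.

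No paired analysis was possible because the deposited columns carry no replicate numbers. Fits without a library were not run, as the tables hold no value per library; the reads recovered per library stand in the text instead.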
